A study of Mus musculus with 42 samples.

Results

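The clustered protocadherin locus of the mouse lies on chromosome 18, and its methylation was read from 100 bp tiles (mm10). The window runs from 5.29 kb before the first alpha gene to 3.13 kb after the end of the last gamma gene and holds 120 of the 141251 tiles of the methylation table. By the RefSeq gene limits (GRCm38.p6), 31 tiles fell in the alpha cluster (chr18:36930285-37188897, 14 genes), 17 in the beta cluster (chr18:37264998-37521419, 22 genes) and 58 in the gamma cluster (chr18:37661775-37841873, 22 genes). The remaining 14 lay between or just outside the clusters. Position alone chose the tiles, and no methylation value was used.

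The study exposed C57BL/6J males from 8 weeks of age to vehicle (labelled unexposed), to 2.5 mg/kg/day (low) or to 25 mg/kg/day (high) of DEHP, a phthalate plasticizer, over 67 days, and mated them with females that were not exposed. The labels list wild-type C57BL/6 sperm at 14 weeks and C57BL/6 * DBA/2J embryonic and extra-embryonic tissue at embryonic day 7.5, all as male. Methylation was measured by reduced representation bisulfite sequencing, which samples CpG-rich fragments and reads unconverted cytosines as methylated. The table holds 9 libraries, 3 each named control, low and high. The names give the treatment but not the tissue, so sperm, embryonic and extra-embryonic DNA cannot be told apart here, and the labels do not say how many animals a library holds. Spread between libraries may therefore be technical. Coverage per tile is not given in the sources used here, so the depth behind each value is unknown and a tile's percentage carries no counting interval.

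Clustered protocadherins are cell adhesion proteins of the cadherin family, known above all from neurons, where each cell chooses a few of the genes and displays them as a surface identity code. In the alpha and gamma clusters each gene has its own large first exon, with its own promoter, that is spliced to constant exons shared by the whole cluster, while beta genes consist of a single exon. Promoter methylation set in the early embryo by the enzyme DNMT3B, and binding of CTCF to promoters that lack methylation, take part in that choice. The last genes of the alpha and gamma clusters, called C-type (Pcdhac1, Pcdhac2, Pcdhgc3, Pcdhgc4 and Pcdhgc5), are known to be expressed more constantly. RefSeq also lists 3 gene models (Gm37013, Gm38666 and Gm38667) that run from the alpha cluster to the end of gamma, so most tiles lie inside more than 1 annotated gene.

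Mean methylation of the measured tiles differed between the clusters in every library, with beta highest and gamma lowest. The beta tiles averaged 42% ± 2.12 (SD, n = 9 libraries), the alpha tiles 28.6% ± 1.14 and the gamma tiles 19.4% ± 0.493, while all tiles of the table averaged 35.9% ± 0.31. Beta exceeded gamma by 22.6 percentage points (SD 1.82), alpha exceeded gamma by 9.21 (SD 1.03), and alpha lay below beta by a mean difference of -13.4 (SD 2.16). Each difference had the same sign in 9 of 9 libraries, with an adjusted p of 0.00391 by an exact two-sided sign-flip permutation test, which is the smallest p that 9 libraries allow. The same tiles were compared in every library, so this p speaks for repeatability over libraries and not for other tiles of the clusters. Tiles of 1 library are not independent and the clusters were sampled at different places relative to their genes. The gap between alpha and gamma was 13.8 points without C-type genes and 5.64 for tiles within 500 bp of a gene start. It was 1.33 for tiles in the genes further downstream, where its adjusted p by the same exact test was 0.00781. The 17 alpha tiles kept without C-type genes include 5 tiles more than 3000 bp from any gene start, which averaged 56.6%. Gamma has no tile of that kind. The 12 tiles of the other alpha genes averaged 26.8%, against 18.7% for Pcdhga and 27.4% for Pcdhgb genes. The gap between alpha and beta was -6.41 points without C-type genes, again with the same sign and an adjusted p of 0.00391 by the exact test. The same 5 alpha tiles far from a start enter this gap. The 12 tiles of the other alpha genes averaged 26.8%, against 40.3% for the 16 beta tiles in or at a gene.

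**Figure D1:**
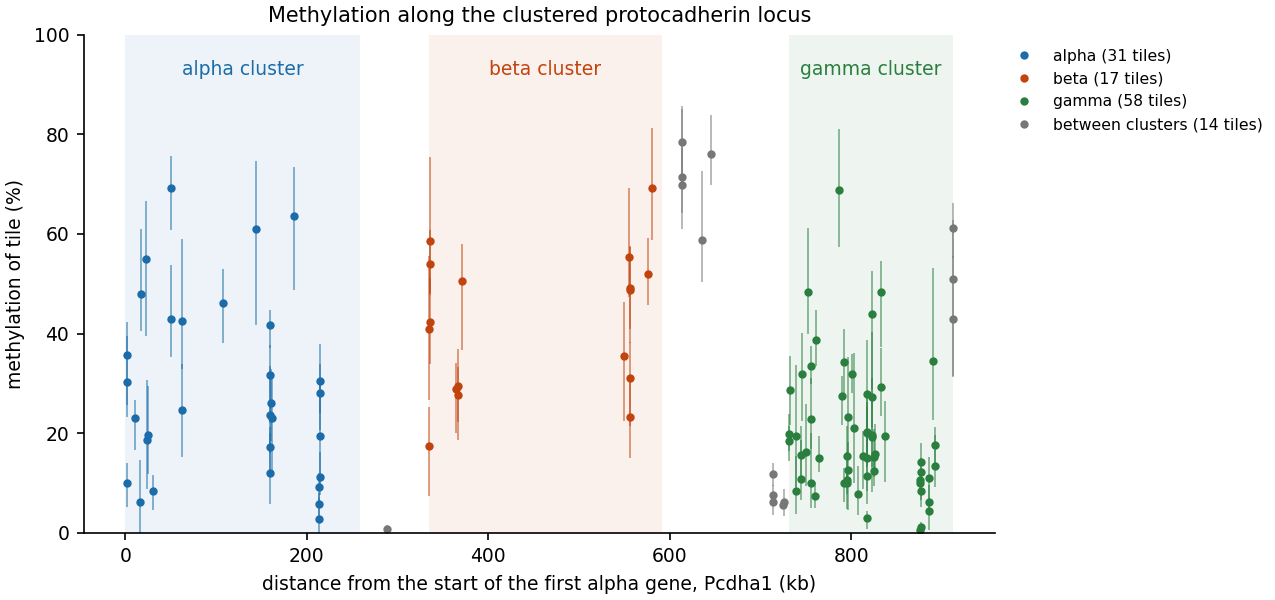
Mean methylation of the 120 tiles over 9 libraries (points, in percent) against distance from the start of Pcdha1 in kb, with a vertical line from the lowest to the highest library. Shaded spans are the 3 clusters. Beta tiles lie mostly above 20% and gamma tiles mostly below it, and the tiles between beta and gamma include the highest mean, 78.6%.

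Tiles between 20% and 80% methylation made up most of alpha and beta but not of gamma. Of the 120 tiles, 62 (51.7%) had a mean between 20% and 80%, against 34.8% of all tiles in the table, and 52 (43.3%) lay between 5% and 20%, against 22.3%. Only 6 tiles (5%) lay under 5%, against 27.4% of all tiles, and 0 of 120 lay above 80%, against 15.5%. In beta 16 of 17 tiles were between 20% and 80%, in alpha 19 of 31, and in gamma 19 of 58, while 35 gamma tiles lay between 5% and 20%. These shares are a description, since neighbouring tiles are not independent samples of the genome.

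**Figure D2:**
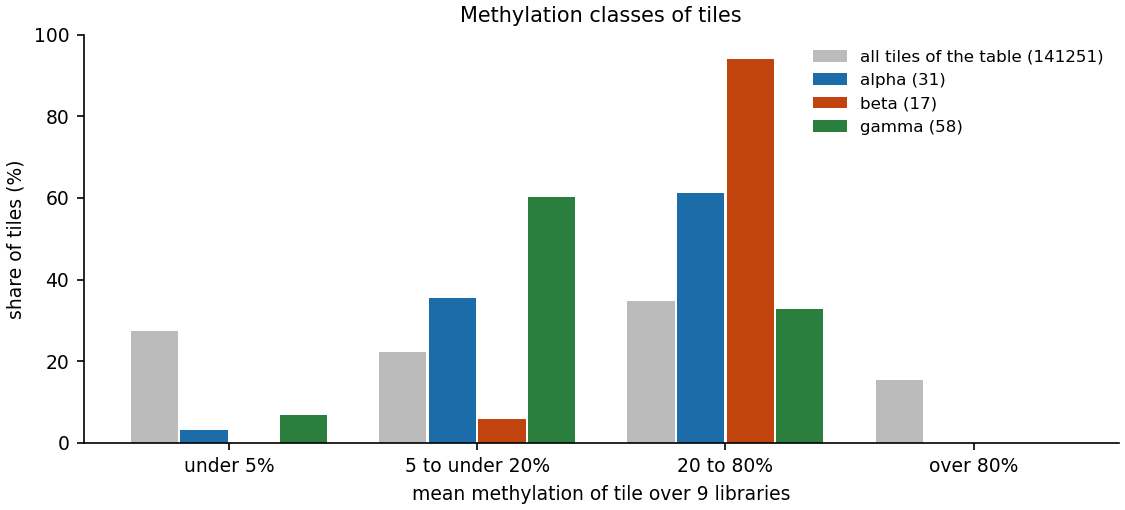
Share of tiles (percent, vertical axis) in 4 classes of mean methylation over 9 libraries, for all 141251 tiles of the table (grey) and for the alpha, beta and gamma clusters. None of the 3 clusters has a tile over 80%, and 94.1% of the beta tiles lie between 20% and 80%.

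Of the 58 genes, 35 had a tile near their start or in their span, and the clusters were covered unevenly. In gamma 21 of 22 genes had one, the exception being Pcdhga6. In alpha 8 of 14 did, with none for Pcdha6, Pcdha7 and Pcdha9 to Pcdha12. In beta 6 of 22 did (Pcdhb1, Pcdhb2, Pcdhb3, Pcdhb16, Pcdhb17 and Pcdhb20), so the beta mean speaks for few of its genes. Near-identical first exons of neighbouring genes can share reads, and how reads that fit more than 1 copy were treated is not given in the sources used here.

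Within the gamma cluster the C-type tiles were the least methylated on average and the tiles of the B genes the most. The 13 tiles of Pcdhgc3, Pcdhgc4 and Pcdhgc5 averaged 11.1% (9.92% to 13.3% over 9 libraries), the 29 tiles of the A genes 18.7% (17.6% to 20.5%) and the 16 tiles of the B genes 27.4% (25.4% to 28.6%). The ranges of these subfamilies over libraries do not meet, but they mix positions: 7 of the 13 C-type tiles, 16 of the 29 A tiles and 4 of the 16 B tiles lie within 500 bp of a start, where methylation was lower. At starts alone, the C-type range (9.09% to 12.8%) meets that of the A genes (12.4% to 16.1%). Downstream alone, the B genes averaged 29.6% (27.6% to 31.1%), the A genes 25.1% (22.9% to 26.1%) and the C-type genes 11.7% (9.61% to 13.8%). The B tiles there include 2 of Pcdhgb8, annotated as a transcribed pseudogene, with a mean of 38.8%, and the A tiles include 1 of Pcdhga7 at 68.8%. The gamma C-type genes were not alike. Pcdhgc3 averaged 8.18% over 7 tiles and Pcdhgc4 7.22% over 3, but Pcdhgc5 averaged 21.9% over 3 tiles, above the mean of the A tiles. In alpha, the 14 tiles of Pcdhac1 and Pcdhac2 averaged 20.2% (17.9% to 21.7%) and the 12 tiles of 6 alternate genes 26.8% (24% to 29.6%). Of these, 9 of the 14 C-type tiles and 1 of the 12 alternate tiles lie at starts, and downstream alone the values were 22.4% (18.8% to 25.6%) and 27% (24.8% to 29.3%), with ranges that meet. The 16 beta tiles in or at a gene averaged 40.3% (37.3% to 43.8%).

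Tiles at a gene start, within 500 bp on either side, were lower on average than tiles further into the gene. In gamma the 27 tiles at starts averaged 13.9% (12.7% to 15.6% over libraries) and the 31 tiles downstream averaged 24.3% (23.4% to 25.1%). In beta the 3 tiles at starts averaged 29.1% (25.4% to 32.9%) and the 13 downstream 42.9% (39.6% to 48.0%). In alpha the 10 at starts averaged 19.5% (17.9% to 20.7%), the 16 downstream 25.6% (24.3% to 27.1%), and the 5 tiles further than that from a start 56.6% (52.5% to 64.3%). These alpha values mix subfamilies, with 9 C-type tiles and 1 alternate tile at starts, and 5 and 11 downstream. Within the alpha C-type genes the means were 18.9% (17.1% to 20.6%) at starts and 22.4% (18.8% to 25.6%) downstream, with ranges that meet. The single alternate tile at a start had 24.7%, against 27% downstream. Downstream here means 500 to 3000 bp from the start in alpha and gamma, and to the end of the gene in beta.

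The pattern was not shared by every gene. Of 17 genes with tiles in both places, the downstream mean was above the start in 11, with a median difference of 5.99 points and a range from -19.1 to 32.1. Pcdhgb1 had 16.3% at its start and 48.4% downstream, and Pcdhgb2 had 7.43% and 38.7%. Pcdhac2 had 5.91% and 22.3%, and Pcdhb1 29.2% and 51.7%. The order was the other way round in Pcdhgc5, with 34.6% at its start and 15.5% downstream, and in Pcdhgb5, with 32% and 21.1%. Most of these genes had 1 to 3 tiles in each place, and these genes were picked for their values.

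The tiles at the extremes of each cluster show its full span. Distances from a gene start are given to the middle of the tile. The lowest in gamma, 40 bp after the start of Pcdhgc3 (chr18:37806401-37806500), lay between 0% and 1.52% in the 9 libraries with a mean of 0.619%. The tile 200 bp before it had 9.98% and the tile immediately before it 10.7%, so adjoining tiles of 1 gene start differed. The highest in gamma, 1516 bp into Pcdhga7 (chr18:37716301-37716400), had a mean of 68.8% (57.3% to 81.1%). The lowest in alpha lay at the start of Pcdhac2 (chr18:37143901-37144000), with 2.83% (0% to 8.02%), and the highest, more than 3000 bp from any gene start, at chr18:36980301-36980400, with 69.3% (60.7% to 75.6%). In beta the lowest lay at the start of Pcdhb1 (chr18:37265201-37265300), with 17.5% (7.38% to 25.3%), and the highest between 2 genes at chr18:37510101-37510200, with 69.2% (58.8% to 81.3%).

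The 14 tiles between or beside the clusters had means either at or below 11.8% or at or above 42.9%. The 5 tiles between the end of beta and the gene Taf7 had means from 58.8% to 78.6%. The 3 tiles at the upper limit of Taf7, which encodes a subunit of the general transcription factor TFIID, had 11.8%, 6.10% and 7.61%, and 2 tiles ahead of gamma had 5.58% and 6.22%. A single tile between alpha and beta (chr18:37218301-37218400) had a mean of 0.681% and was listed at 0 in 4 of 9 libraries. The 3 tiles after gamma had 51.0%, 61.3% and 42.9%.

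The comparison of exposed with control libraries asks whether exposure of the males was accompanied by a change of methylation at the locus. Low and high are set against the same 3 control libraries, so the comparisons are not independent. None of the 120 tiles passed an adjusted p of 0.05 in limma's test over all tiles, in any comparison, and 0% of all tiles passed for low against control, 0% for high against control and 0% for high against low. At an unadjusted p under 0.05 by limma, low against control gave 7 tiles of the locus (3 higher, 4 lower), or 5.83%, where the whole table gave 5.49% (3.26% higher, 2.23% lower). High against control gave 10 tiles (6 higher, 4 lower), or 8.33%, where the table gave 4.44% (2.64% higher, 1.8% lower). High against low gave 5 tiles (4 higher, 1 lower), or 4.17%, where the table gave 4.71% (2.39% higher, 2.32% lower). The low and high-against-low shares lay near the background, and the larger share for high against control was not tested, since the tiles are not independent.

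Tiles whose libraries did not overlap between groups were counted next. For low against control 8 of 120 tiles (6.67%) did not overlap, against 9.53% of all tiles. Of the 31 alpha tiles 4 (12.9%) did not overlap there, all lower in low. For high against control it was 15 (12.5%) against 9.23%. Of the 15, 10 were gamma tiles (17.2% of the 58), 6 higher and 4 lower in the high libraries. For high against low it was 9 (7.5%) against 9.56%. In beta 0 of 17 tiles had groups apart in any of the 3 comparisons, but 17 tiles are few for shares of 9.23% to 9.56% in the table. These counts were not tested.

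The direction over all tiles depended on whether the libraries were centred. As deposited, 73 tiles had a higher mean in low than in control and 47 a lower one, and 70 against 50 for high. After each library was centred on its median over tiles of 20% to 80% methylation, the split turned to 45 against 75 for low and 53 against 67 for high. This centring takes a constant value for each library from every tile, also from tiles outside that band. The same centring moved the median difference of all tiles in the table from 0.0656 to -1.10 points for low and from 0.0842 to -0.958 for high. High against low gave 58 against 62 tiles with and without centring, and its median over all tiles moved from 0.00606 to 0.129.

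No difference of cluster means between groups passed the test. The alpha means were 28.3%, 27.3% and 27.5% in the control libraries, 29.7%, 27% and 29.8% in the low and 29.8%, 28.8% and 29.4% in the high libraries. All 3 high libraries lay above all 3 control libraries, and the low libraries spanned both. The high mean of 29.3% ± 0.503 exceeded the control mean of 27.7% ± 0.525 (SD, n = 3 each) by 1.63 points, with p = 0.1 by an exact two-sided permutation test, the smallest that 3 against 3 allows, and an adjusted p of 0.9 over 9 comparisons. With the centring above, added after the data were seen, the difference was 0.591 points and its exact p 0.6. The means of all tiles in the table were 35.2% to 36.1% in the control and 35.9% to 36.1% in the high libraries.

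The gamma means, each over more tiles than those of alpha and beta, had the smallest spread between libraries. They were 19.1%, 19.2% and 19.1% in control, 20.3%, 19.1% and 19% in low and 19.7%, 20.1% and 19.2% in high libraries, so low 1, high 1 and high 2 stood above the rest. The differences from control were 0.322 points for low (exact permutation p = 0.9) and 0.533 for high (exact permutation p = 0.2), with overlapping groups. The first turned to -0.0892 without low 1. Both fell below 0 after centring, to -0.844 and -0.509. The constant taken off each library there comes from tiles of 20% to 80%, where most gamma tiles do not lie.

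Beta showed no separation of the groups. Its means were 40.8%, 40.7% and 44.3% in control, 44.9%, 39.4% and 41.6% in low and 41.3%, 44.8% and 40.2% in high libraries. Each group thus had 1 library near 44% to 45%, and the rest lay between 39.4% and 41.6%. The group means of 42% ± 2.06, 42% ± 2.80 and 42.1% ± 2.43 (SD, n = 3 each) differed by at most 0.135 points, far less than the spread inside each group, with an exact permutation p of 1 in all 3 comparisons. The sign of these differences changed when control 1, control 2, low 1, low 2, low 3 or high 2 was left out, in at least 1 of the comparisons that hold it.

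**Figure D3:**
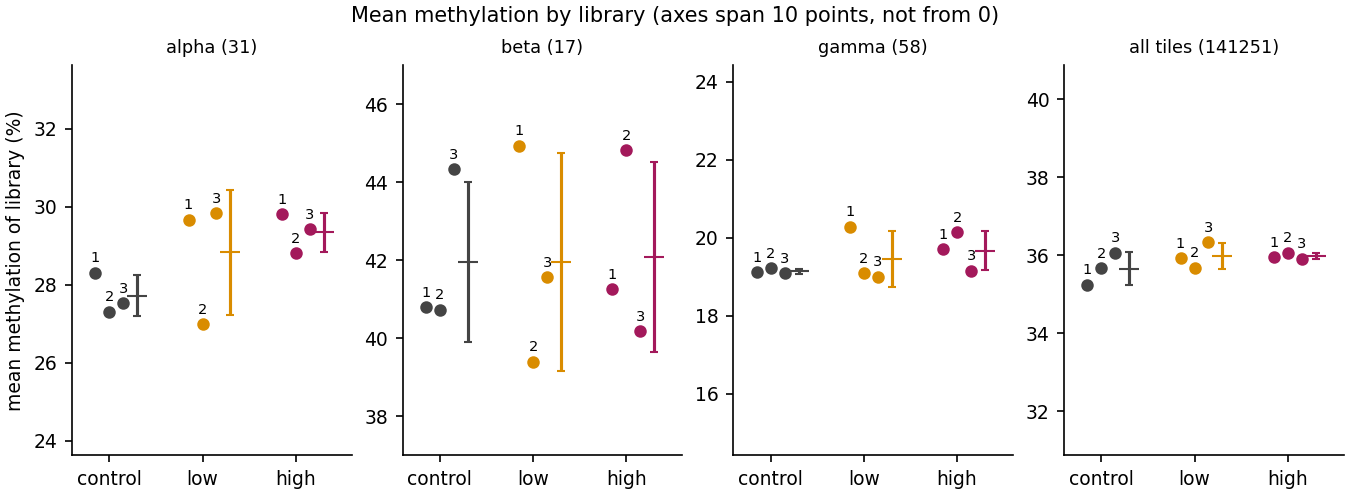
Mean methylation of each library (points, numbered as in the column names, in percent) by group for the alpha, beta and gamma clusters and for all tiles, with the group mean and SD beside them (n = 3). Each axis spans 10 points and does not start at 0. In beta, 1 library per group stands above the others of its group, while in gamma, whose means are over the most tiles, all 9 lie between 19% and 20.3%.

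The 2 smallest p values per direction and comparison came from 8 tiles, and none of them passed adjustment. Of these, 4 lie in the gamma cluster downstream of a start or at one. In Pcdhga10, a gamma A gene, the tile 634 bp after the start (chr18:37747601-37747700) had 15.2%, 29.4% and 22.6% in control, 25%, 28.2% and 22% in low and 36.3%, 34.3% and 38.8% in high libraries. All high libraries lay above the other 6. High exceeded control by 14.1 points (SE 3.53) with an adjusted p of 0.985 by limma, and low by 11.4 points (SE 3.53) with an adjusted p of 0.981. The tiles on either side, 534 and 734 bp after the start, showed differences from control of -0.184 (SE 3.79) and -1.08 points (SE 2.73), so the higher values of the high libraries did not extend to them.

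In Pcdhgb7, a gamma B gene, the tile 1431 bp after the start (chr18:37753001-37753100) had 22.2%, 24.1% and 27.3% in control, 16.9%, 14.0% and 20.7% in low and 13.2%, 19.9% and 14.1% in high libraries. Every exposed library lay below every control library. The differences from control were -7.33 points for low (SE 2.47, adjusted p = 0.867 by limma) and -8.82 for high (SE 2.47, adjusted p = 1). The adjoining tile at chr18:37753101-37753200, examined because of the first, had 22.5%, 28.2% and 31% in control, 21%, 8.16% and 21.7% in low and 10.6%, 19.4% and 14.3% in high libraries. It too was lower in every exposed library, by differences of -10.3 and -12.5 points (SE 4.28 each). The 2 tiles on the other side, in the same gene, had larger means in the high libraries than in control by 9.63 (SE 5.12) and 8.39 points (SE 3.85), with overlapping groups, so the 4 adjoining tiles of Pcdhgb7 did not move one way.

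In Pcdhgb5, another gamma B gene, the tile 1979 bp after the start (chr18:37732901-37733000) had 36.1%, 21.2% and 29.7% in control, 22.5%, 20.3% and 15.9% in low and 17.5%, 10% and 16.7% in high libraries. All high libraries were below all control libraries, while low overlapped with control. High differed from control by -14.3 points (SE 4.001, adjusted p = 1 by limma). At the start of Pcdhga1, the first gamma gene, the tile at chr18:37662001-37662100 had 20.7%, 18% and 19.7% in control, 20.6%, 20.7% and 23.9% in low and 18.4%, 21% and 16.5% in high libraries. Its groups overlapped, and high differed from low by -3.09 points (SE 1.49, adjusted p = 1 by limma), which was -2.004 without low 3 and -2.03 without high 3.

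In the alpha cluster, the tile 574 bp after the start of Pcdha5 (chr18:36960801-36960900) had 4.67%, 5.48% and 6.96% in control, 11.4%, 6.82% and 9.91% in low and 11.6%, 9.57% and 9.38% in high libraries. The high libraries were all above control, and low 2 fell just under the highest control. The differences were 3.66 points for low (adjusted p = 0.882 by limma) and 4.47 for high (adjusted p = 1), with an SE of 1.34 each. In Pcdhac2, the last alpha gene, the tile 972 bp after the start (chr18:37144601-37144700) had 33.9%, 33.2% and 31.3% in control, 30.6%, 24% and 29.1% in low and 28.9%, 31.3% and 31.5% in high libraries. Low lay below control without overlap, by a difference of -4.89 points (SE 1.78, adjusted p = 0.879 by limma), which was -2.96 without low 2.

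The other 2 tiles lie outside the clusters. Between beta and gamma, chr18:37543801-37543900 had 64.2%, 70.4% and 64.4% in control, 75%, 85.0% and 79% in low and 73.6%, 65.2% and 65.7% in high libraries. Low lay above both other groups, by 13.3 points over control (SE 3.38, adjusted p = 0.759 by limma), and high differed from low by -11.5 points (adjusted p = 0.964). After the end of gamma, chr18:37842701-37842800 had 40.8%, 51.0% and 38.7% in control, 39.7%, 31.2% and 33.3% in low and 41.7%, 55.6% and 53.7% in high libraries. High exceeded low by 15.6 points without overlap (SE 4.74, adjusted p = 0.971 by limma), and the control libraries overlapped with both.

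**Figure D4:**
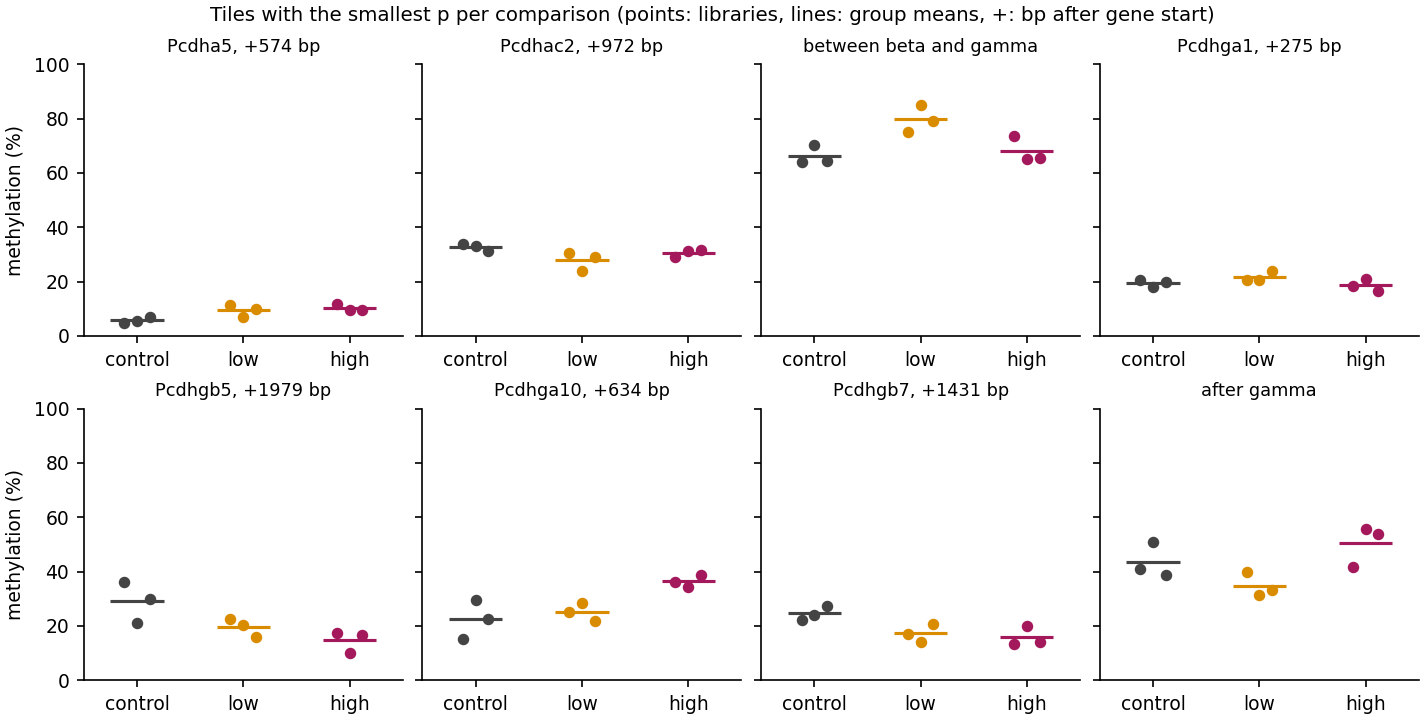
Methylation in percent of the 8 tiles with the smallest p per comparison and direction, by group, with 1 point per library (n = 3 per group) and a line at the group mean. In the tile of Pcdhga10 all high libraries lie above the other 6, and in the tile of Pcdhgb7 all exposed libraries lie below the controls, but no tile passed adjustment over all 141251 tiles.

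The spread of a tile between libraries of 1 group followed its methylation level. The pooled within-group SD had a median of 5.23 points in alpha, 6.33 in beta and 3.80 in gamma, against 3.26 over all tiles. Between 10% and 20% methylation the 37 tiles of the locus had a median SD of 3.72 against 3.20 for all tiles. Between 20% and 40% it was 4.81 against 5.10, and between 40% and 60% it was 6.30 against 6.27. Of the 120 tiles, 61 (50.8%) were above the median SD of all tiles in their band and 10 (8.33%) were above its 90th percentile. By cluster, the median percentile within the band was 55.2 in alpha, 64.1 in beta and 50.8 in gamma. In alpha the 7 tiles between 10% and 20% had a median SD of 5.42 and the 3 tiles between 60% and 80% one of 8.22, against 3.20 and 5.63 for all tiles there, while its 6 tiles between 40% and 60% had 5.94 against 6.27. The part of read depth in these SDs was not tested, because coverage is not given in the sources used here.

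**Figure D5:**
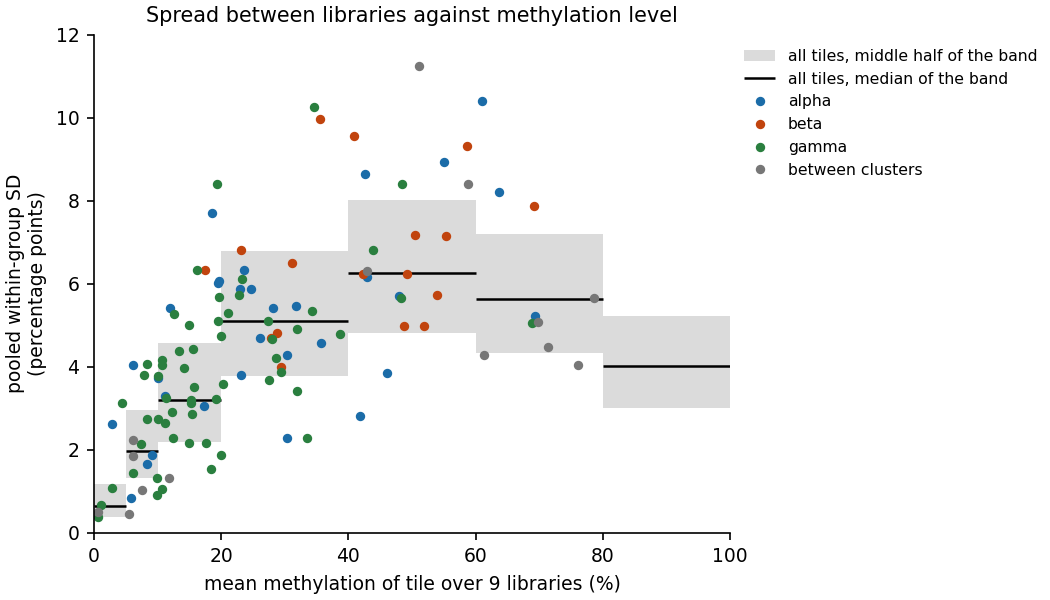
Pooled within-group SD of each of the 120 tiles (vertical axis, percentage points, 3 groups of 3 libraries) against its mean methylation (horizontal axis, percent), coloured by cluster. Black lines give the median and grey boxes the middle 50% of all tiles in each methylation band. The points of the 3 clusters scatter on both sides of the lines.

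The largest within-group SD of the 120 tiles, 11.3 points, was that of a tile after gamma (chr18:37842501-37842600), with 55%, 44.4% and 59.8% in control, 31.5%, 61.4% and 62.8% in low and 50.4%, 45.4% and 48.6% in high libraries. Low 1 lay lowest there by a wide gap. It was picked for its value, as the clusters alone were ranked by the rule. In alpha the tile at chr18:37073901-37074000, more than 3000 bp from a gene start, had the largest SD of its cluster, 10.4 points, with 59.8%, 54.2% and 60.5% in control, 68.4%, 41.7% and 68.9% in low and 62.6%, 58.4% and 74.7% in high libraries. Low 2 stood apart there. In beta it was a tile of Pcdhb16 (chr18:37479701-37479800, SD 9.98), with 22.4%, 42.1% and 46.2%, then 44.2%, 29.7% and 32.7%, then 36.7%, 41.4% and 24.4%, in the same order, so that each group had a library under 30%. In gamma it was the start of Pcdhgc5 (chr18:37819801-37819900, SD 10.3), with 25.8%, 30% and 40.9%, then 53.2%, 33.9% and 28.2%, then 22.7%, 36.5% and 40%. This start lies in the least methylated subfamily and spanned 30.4 points over the 9 libraries.

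In beta 1 library of each group had a higher mean than the others, though not in every tile. Control 3 was the highest of its group in 10 of 17 beta tiles and the lowest in 3. Low 1 was highest in 9 and lowest in 6, and high 2 was highest in 10 and lowest in 1. These libraries were picked as the highest of their groups, and their beta means lay 2.38, 2.98 and 2.74 points above the group mean. Over all tiles of the table the same libraries differed from their group mean by 0.406, -0.052 and 0.0921 points, but those means are over far more tiles. In alpha the largest such deviation was -1.84 points for low 2, and in gamma 0.822 for low 1. Whether tiles of the locus moved together was described by the correlation, over the 9 libraries, of their deviations from the group means. Its median was -0.00923 over 50 pairs of adjoining tiles of the locus, against 0.0269 over 63779 adjoining pairs of the table. Over pairs more than 10 kb apart it was -0.00231 in alpha (400 pairs), 0.0729 in beta (104 pairs), 0.0315 in gamma (1395 pairs) and 0.0197 in the whole window (6769 pairs). These pairs share libraries and tiles, so the values are a description.

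Libraries of 1 group were no closer to each other at the locus than libraries of different groups. The mean absolute difference over the 120 tiles was 5.36 points in the 9 pairs of the same group (4.77 to 6.48) and 5.34 in the 27 pairs of different groups (4.58 to 6.08). Over all tiles the corresponding means were 4.25 and 4.24 points.

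Expression was deposited for 6 other libraries, 2 per group, as CPM (read counts scaled to a fixed library total), again with no tissue in the column names. Of the 58 clustered protocadherin genes 1 was in the table, Pcdhgc4 (ENSMUSG00000023036), the C-type gene whose start had tiles of 6.09% and 11.1% methylation. It had 46.1 and 39.3 CPM in control, 35.8 and 38.7 in low and 47.5 and 47.6 in high libraries. Both low libraries lay below both high libraries and below both controls, and both high libraries lay above the controls. The log2(CPM + 1) difference was -0.19 for low against control (SE 0.09, adjusted p = 0.928), 0.15 for high against control (adjusted p = 0.866) and 0.34 for high against low (adjusted p = 0.345), by limma over 12987 genes. The first was -0.08 without control 1 and -0.30 without control 2, and the second 0.27 and 0.04. Groups did not overlap for 33.6% of all genes in high against low, so with 2 libraries per group such a gap is common. The constant exons belong to all gamma genes, so the reads listed for Pcdhgc4 may come from any of them.

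The 25 genes of a list of regulators, which holds CTCF, cohesin subunits, DNA methyltransferases, TET enzymes and other chromatin factors, were all measured, and 0 were called. For low against control 3 lay above and 22 below 0, with a median log2 difference of -0.07 against 0.0025 over all genes. An unadjusted p under 0.05 by limma was found for 1, where 4.87% of all genes did and 0% were called. For high against control 6 lay above and 19 below (median -0.04, all genes 0.020), with 2 under 0.05, where 5.29% of genes did and 0.0077% were called. For high against low 14 lay above and 11 below (median 0.0023, all genes 0.0146), with 3 under 0.05, where 7.91% did and 0% were called. The split by direction was not tested. Dnmt3l, the cofactor of the de novo methyltransferases, had 2.72 and 2.12 CPM in control, 2.53 and 1.65 in low and 5.19 and 4.24 in high libraries, a log2 difference of 0.74 for high against control (SE 0.17, adjusted p = 0.866 by limma). Dnmt3b had 1191 and 1389 CPM in control, 1519 and 1202 in low and 1089 and 940 in high libraries, a log2 difference of -0.35 (SE 0.13, adjusted p = 0.866 by limma). Tet3, which oxidises methylated cytosine, had 49.0 and 53.5 CPM in control, 44.9 and 44.5 in low and 51.3 and 51.5 in high libraries, with a log2 difference of -0.19 for low against control (SE 0.06, adjusted p = 0.928 by limma). For Tet2, of the same enzyme family, it was -0.17 (SE 0.11, adjusted p = 0.928 by limma).

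Of 12 protocadherins outside the clusters, 5 were measured (Pcdh1, Pcdh7, Pcdh8, Pcdh18 and Pcdh19) and 0 were called by limma. At an unadjusted p under 0.05 there were 1 for low against control, 0 for high against control and 3 for high against low, where 4.87%, 5.29% and 7.91% of all genes did. Pcdh7 had 25.1 and 28.5 CPM in control, 33.8 and 28.5 in low and 23 and 23 in high libraries, and its log2 difference of high against low was -0.42 (SE 0.10, adjusted p = 0.339 by limma). Pcdh8, a protocadherin of the early mesoderm, had 16.9 and 15.1 CPM in control, 20.3 and 22 in low and 18.7 and 14.8 in high libraries, with a log2 difference of 0.38 for low against control (SE 0.12, adjusted p = 0.928 by limma). Pcdh19 had 61.0 and 51.0 CPM in control, 33.2 and 53.5 in low and 62.1 and 62.6 in high libraries, with a log2 difference of 0.55 for high against low (SE 0.19, adjusted p = 0.489 by limma). Pcdh1 differed by -0.07 for high against control (SE 0.08, adjusted p = 0.899 by limma). Cell type markers varied beside these values. All 5 visceral endoderm markers were listed, with a sum of 568 and 1134 CPM in control, 967 to 1103 in low and 1024 to 1342 in high libraries. All 5 epiblast and mesoderm markers were listed, with sums of 805 to 848 in control, 863 to 904 in low and 660 to 769 in high libraries. Of 5 extra-embryonic ectoderm markers 4 were listed, Elf5 being the other, with sums of 181 to 212, 178 to 269 and 155 to 176 CPM in control, low and high libraries. Eomes made up most of each sum, with 128 and 176 CPM in control and 110 and 86.5 in high libraries. The other listed members had larger means in high than in control: Esrrb with 1.06 and 1.07 CPM in control against 7.02 and 5.77 in high, Cdx2 and Tfap2c, so 3 of 4 lay above 0 with a list median of 0.50 on the log2 scale, and 0 were called by limma (2 at an unadjusted p under 0.05). The listed decidua (2 of 5), blood (1 of 3) and neural (2 of 3) markers summed to at most 9.56, 2.69 and 21.4 CPM. The part of cell composition in the expression values was not tested, and fewer cells of a type cannot be told apart from less RNA per cell.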

How the data were processed

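Percent methylation per 100 bp tile was deposited by the authors in 1 table of 9 libraries, without coverage, so no coverage minimum or binomial test could be applied. CPM values were deposited by the authors in 1 table of 6 libraries, per the file headers. Its 3 lines without a gene hold 27.9% to 29.8% of the CPM and were left out. Per the submitters' processing notes, which give no roles, the tools were Bismark, Bowtie2, Trim Galore and methylKit, and also edgeR, SAMtools, TopHat and Bowtie 0.12.2, with the builds mm10 and mm8. On chromosome 18 the 1240 tiles within 500 bp of a GRCm38.p6 gene end averaged 12.0% methylation and the others 47.2%, against 30.4% to 38.2% near ends shifted by 100000 to 3000000 bp, so gene limits of that build were used.

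Columns were grouped by the treatment in their names. Tiles were tested with limma 3.58.1 in R 4.3.3 on percent methylation over all 141251 tiles, in 1 fit of 3 groups, and expression with limma and a trend on log2(CPM + 1) for genes with at least 1 CPM in 2 libraries, which understates changes of low genes. Benjamini-Hochberg adjustment ran over all tiles or genes with a threshold of 0.05. Library means of clusters were compared by exact permutation tests, adjusted over 9 comparisons or 3 cluster pairs. The scripts were tested on simulated data. Tiles were named when they had 1 of the 2 smallest p values per comparison and direction, or the highest mean, lowest mean or largest SD of a cluster. For the lists, the 2 members with the smallest p per comparison were taken, and exceptions are marked. The tiles, lists and comparisons were chosen with earlier results of these data known. The numbers in the column names are not known to pair the libraries. Deviations from the group means correlated between -0.0333 and 0.0277 for libraries of different groups with the same number. With different numbers the range was -0.0289 to 0.0282, both over tiles of 5% to 95% mean methylation. Alternatives covered the scale, the centring, filters, tile subsets, the number as a block and each library left out.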

Additional observations from a re-analysis of the deposited data

How the results depend on the processing

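No tile of the locus was called in any comparison by limma under any of the alternatives, where between 4 and 11 of the 120 had an unadjusted p under 0.05 and the lowest adjusted p was 0.529. At most 2 tiles of the whole table were called. The order of the clusters held under every alternative run. With the number in the column names as a replicate block, 0 tiles were called in each comparison and the difference of Pcdhgc4 for low against control stayed at -0.19 on the log2 scale (adjusted p = 0.927 by limma); no call changed, and the numbers are not known to pair the libraries. Differences of cluster means between groups were small and several changed sign, with no call on either side. With the median over tiles they became -2.21 (alpha) and -2.26 (beta) for low against control, -2.11 (beta) for high against control and -0.249 (gamma) for high against low. With the mean of all tiles subtracted, low against control became -0.307 (beta) and -0.000372 (gamma) and high against control -0.181 (beta). With the centring on tiles of 20% to 80%, added after the data were seen, low against control became -0.0498 (alpha), -1.15 (beta) and -0.844 (gamma), and high against control -0.908 (beta) and -0.509 (gamma). With 1 library left out, alpha ran from -0.402 (without low 2) to 1.021 for high against low. Beta ran from -1.47 (without low 1) to 1.30 for low against control, from -1.24 (without high 2) to 1.32 for high against control and from -1.25 (without high 2) to 1.61 for high against low. Gamma ran from -0.0892 (without low 1) to 0.551 for low against control and from -0.0255 (without high 2) to 0.623 for high against low. Subtracting a mean or centring takes a constant value for each library from every tile, which moves all cluster differences of a comparison alike. The cause of the other sign changes was not tested. The median within-group SD ran from 4.35 to 5.43 in alpha and from 3.39 to 3.93 in gamma with 1 library left out, and was 3.92 in gamma after centring; the values by methylation band are given with the spread. Depth is unknown for the tiles, and with 3 libraries per group a permutation test cannot reach 0.05.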
